A study of Mus musculus with 42 samples.

Results

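The mTOR and S6 kinase pathway is represented here by 10 genes that act on the way to phosphorylation of ribosomal protein S6: Mtor, Rptor, Rheb, Tsc1, Tsc2, Rps6kb1, Rps6ka1, Eif4ebp1, Ddit4 and Sesn2. They were chosen by gene symbol, with earlier results of these data known. They are 10 of the 44674 genes in the count table, and all 10 were among the 21168 genes that passed the filter on low counts, with at least 179 counts in every library.

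mTOR is a protein kinase that works in complexes, and in complex 1 its partner Raptor (Rptor) brings it to its substrates. The small GTPase Rheb switches complex 1 on at the lysosome, and the TSC1 and TSC2 proteins hold Rheb in its inactive form. Complex 1 then phosphorylates the S6 kinase p70 (Rps6kb1), which phosphorylates S6, and the translational repressor 4E-BP1 (Eif4ebp1), which releases its hold on cap-dependent translation. Ddit4 (REDD1) and Sesn2 (Sestrin 2) are stress-induced inhibitors of the complex, and Rps6ka1 (RSK1) is an S6 kinase on the ERK side. In olfactory sensory neurons S6 becomes phosphorylated when the cell has been active, which is why antibodies to phosphorylated S6 are used to capture the ribosomes, and with them the messengers, of activated cells.

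The study asked which messengers of the mouse main olfactory epithelium were captured with phosphorylated S6 after food odours. Male C57BL/6NCrl mice of 8 to 12 weeks were exposed for 1 h to No Odour, to the odour of normal chow diet (NCD), to that of a bacon-flavoured diet with the nutrients of chow (Bacon) or to that of a lard-based high-fat diet (HFD). Each sample is a pool of 4 epithelia, split into a pulldown library and an input library of total RNA from the same pool. There were 5 No Odour, 6 NCD, 5 Bacon and 5 HFD pools, thus 21 pools and 42 libraries, with no genetic change in any group. The transcripts of the pathway were measured, not its proteins or their phosphorylation, so a value below says how much of a messenger was in a library and not how active the kinase was.

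The libraries held 24839380 to 36781440 estimated counts. Levels are given in CPM, counts relative to library sizes scaled by TMM, which sets libraries on a common footing by the bulk of their genes, and the ratio is pulldown CPM over input CPM within a pool. Omp, which defines mature olfactory sensory neurons, was at a mean of 5165 to 8266 CPM in every group and kind of library, and none of the markers of 15 cell types fixed for the tissue was at 0. The summed level of the 9 markers of mature neurons ranged from 15290 to 19350 CPM in the No Odour input and from 15210 to 18470 CPM in the input of the odour groups, with 2 of 9 higher with each odour and 1, 2 and 1 lower with NCD, Bacon and HFD. Over all genes 11.4%, 18.7% and 11% were higher in the input with NCD, Bacon and HFD, and 11.1%, 19.8% and 9.78% lower. Markers of other cell types moved in the same input comparisons, and their part in the results was not tested. Of 4 macrophage markers, 4, 4 and 2 were lower with NCD, Bacon and HFD, with a summed level of 21.4 to 34.9 CPM without odour and of 13.6 to 22.7 CPM with an odour. Of 4 fibroblast and bone markers, 3 were lower with each odour, with a median sum of 1713 CPM without odour and of 1296, 1173 and 1452 CPM with NCD, Bacon and HFD. Of 5 markers of immature neurons, 1, 4 and 3 were lower and 1, 0 and 0 higher, with sums of 878.9 to 1030 CPM without odour, of 771.9 to 844 CPM with Bacon and of 813.9 to 901.4 CPM with HFD. Of 3 plasma cell markers, 2 were higher with Bacon and with HFD, at 21.2 to 28.2 CPM summed against 12.3 to 17.0 CPM without odour. In the pulldown the sum of the 9 mature neuron markers was 16480 to 20070 CPM without odour. It was 21510 to 24360 CPM with NCD, 18220 to 25190 with Bacon and 19670 to 22650 with HFD. The Bowman gland sum was 6141 to 8324 CPM without odour and 12190 to 22150 CPM with an odour. The macrophage sum was 40.6 to 62.2 CPM against 21.3 to 31.9 CPM. The supporting cell sum was 1731 to 2560 CPM against 1498 to 3606 CPM. Their part in the results was not tested. In bulk tissue, fewer cells of a type and less RNA per cell cannot be told apart. Ribosomal RNA (rRNA) took 19.2 to 28.1% of the counts in No Odour input and 9.38 to 18.9% in the input of the odour groups, ranges that do not overlap. In the pulldown it took 11.6 to 23.1% without odour and 8.12 to 17.5% with odour. The No Odour pool numbered 4 stood apart for several members, and its effect is given where it decides a result.

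The stretches before the start sites are shown for the members whose ratio was called with 2 or more odours, Rheb and Ddit4 with a rise and Tsc1, Tsc2 and Rptor with a fall (RefSeq start sites, GRCm38.p6, 5′ to 3′). Promoters were found for 9 of the 10 members, Eif4ebp1 being the other. Capitals mark ACGTG, the core of the hypoxia response element, read on both strands, which in Rheb doubles as the palindromic E-box CACGTG. For Rheb only 30 bases around the E-box are given, since the gene model covers the window, and for the others the longest part outside gene models is given. For Tsc2 this is short because Nthl1 starts close by on the other strand.
Ddit4, chr10:59951835-59952020, minus strand: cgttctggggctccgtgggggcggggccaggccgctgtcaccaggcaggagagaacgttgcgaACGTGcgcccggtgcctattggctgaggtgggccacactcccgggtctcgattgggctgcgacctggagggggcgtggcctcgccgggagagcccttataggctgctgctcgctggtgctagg
Rptor, chr11:119602655-119602904, plus strand: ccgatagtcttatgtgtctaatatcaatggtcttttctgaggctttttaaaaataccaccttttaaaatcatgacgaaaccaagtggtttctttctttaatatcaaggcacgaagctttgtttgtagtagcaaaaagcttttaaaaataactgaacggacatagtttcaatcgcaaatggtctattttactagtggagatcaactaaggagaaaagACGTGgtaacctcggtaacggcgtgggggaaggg
Tsc1, chr2:28640983-28641227, plus strand: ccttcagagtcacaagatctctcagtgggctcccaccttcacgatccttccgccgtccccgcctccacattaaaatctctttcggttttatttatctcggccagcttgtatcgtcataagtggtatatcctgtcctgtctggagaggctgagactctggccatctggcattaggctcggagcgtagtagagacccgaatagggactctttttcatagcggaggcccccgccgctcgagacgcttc
Tsc2, chr17:24632631-24632679, minus strand: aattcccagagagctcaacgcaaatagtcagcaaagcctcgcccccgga
Rheb, chr5:24842440-24842469, minus strand: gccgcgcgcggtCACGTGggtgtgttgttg

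The 9 members have 11 listed start sites, Rps6ka1 having 3. Over the 250 bases before each, ACGTG was found in 4 of the 11 windows, those of Rptor, Rheb and Ddit4 and the second of Rps6ka1, and in 16.6% of 32817 mouse promoters of the same length. The E-box CACGTG was found in Rheb alone among the members and in 6.02% of all promoters. CCGCCC, the GC box, was found for Mtor, Rheb, Rps6ka1, Ddit4 and Sesn2, and in 32.7% of all promoters. TGACGTCA, the cyclic AMP response element, was in none of the members' windows and in 1.55% of all, and TGATGNAA, the core of the element bound by C/EBP and ATF dimers, was likewise in none and in 3.45% of all. ACGTG stood before Rptor, whose ratio fell, and before Ddit4 and Rheb, whose ratios rose, and its part was not tested. It was in neither Tsc1 nor Tsc2. CCGCCC stood before Rheb and Ddit4, whose ratios rose, and not before Rptor, Tsc1 or Tsc2. It also stood before Mtor, Rps6ka1 and Sesn2, whose ratios did not pass, and its part was not tested. These matches describe letters and not binding.

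Per kilobase of the longest coding transcript, Rheb was the most abundant member in the No Odour input, at 24.7 ± 3.01 CPM per kb (SD, n = 5). Ddit4 followed at 16.1 ± 1.45 and Tsc2 at 10.0 ± 1.19 CPM per kb, each apart from its neighbours in every pool. Rps6kb1 at 7.47, Eif4ebp1 at 6.55 and Mtor at 6.48 CPM per kb overlapped between neighbours, and so did Rptor at 3.00, Tsc1 at 2.52 and Sesn2 at 2.41, with Rps6ka1 between the groups at 4.12 CPM per kb. By this measure the activator Rheb stood above its inhibitors Tsc2 and Tsc1, and the kinase Mtor stood in the middle of the list. The order depends on the division by length. Without it the No Odour input held 40.8 to 53.7 CPM of Rheb, 52.5 to 73.6 CPM of Tsc2 and 43.1 to 61.3 CPM of Mtor. In the pulldown Rheb, Ddit4 and Tsc2 kept the first 3 places, with 32.9, 14.0 and 11.6 CPM per kb, while Mtor came ninth at 3.87 CPM per kb, overlapping Sesn2 at 4.15, and Tsc1 came last at 2.71.

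The messengers of the complex and its regulators were captured unequally in mice that had smelled no odour. Of the 10 members, 5 were higher in the pulldown than in the input and 1 was lower, where 31% of all genes tested were higher and 28.5% lower (edgeR quasi-likelihood test, Benjamini-Hochberg adjusted over all genes, threshold 0.05, as for all adjusted p-values below). Capture also moved with the GC content of the transcript. From the lowest to the highest of 4 equal GC classes of coding genes, the median log2 change was -0.22, -0.02, 0.11 and 0.31. In the lowest class 17.3% were higher and in the highest 50.5%. Rptor, Tsc2 and Sesn2 are in the highest class, as are Rps6ka1 and Ddit4, which did not pass. Rheb and Eif4ebp1 are in the second, Mtor and Tsc1 in the third. The part of GC content was not tested. The kinase and its partner went opposite ways. Mtor was captured below its input, with ratios of 0.558, 0.581, 0.512, 0.695 and 0.661 in the 5 pools, a log2 fold change of -0.74 ± 0.104 (SE, adjusted p = 1.47e-06). Rptor was captured above its input, with ratios of 1.39, 1.59, 1.60, 2.34 and 1.44, a log2 fold change of 0.71 ± 0.079 (SE, adjusted p = 3.29e-08). Over all 21 pools, the odour groups included, the Mtor ratio was below 1 in 21 and the Rptor ratio above 1 in 21.

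**Figure D1:**
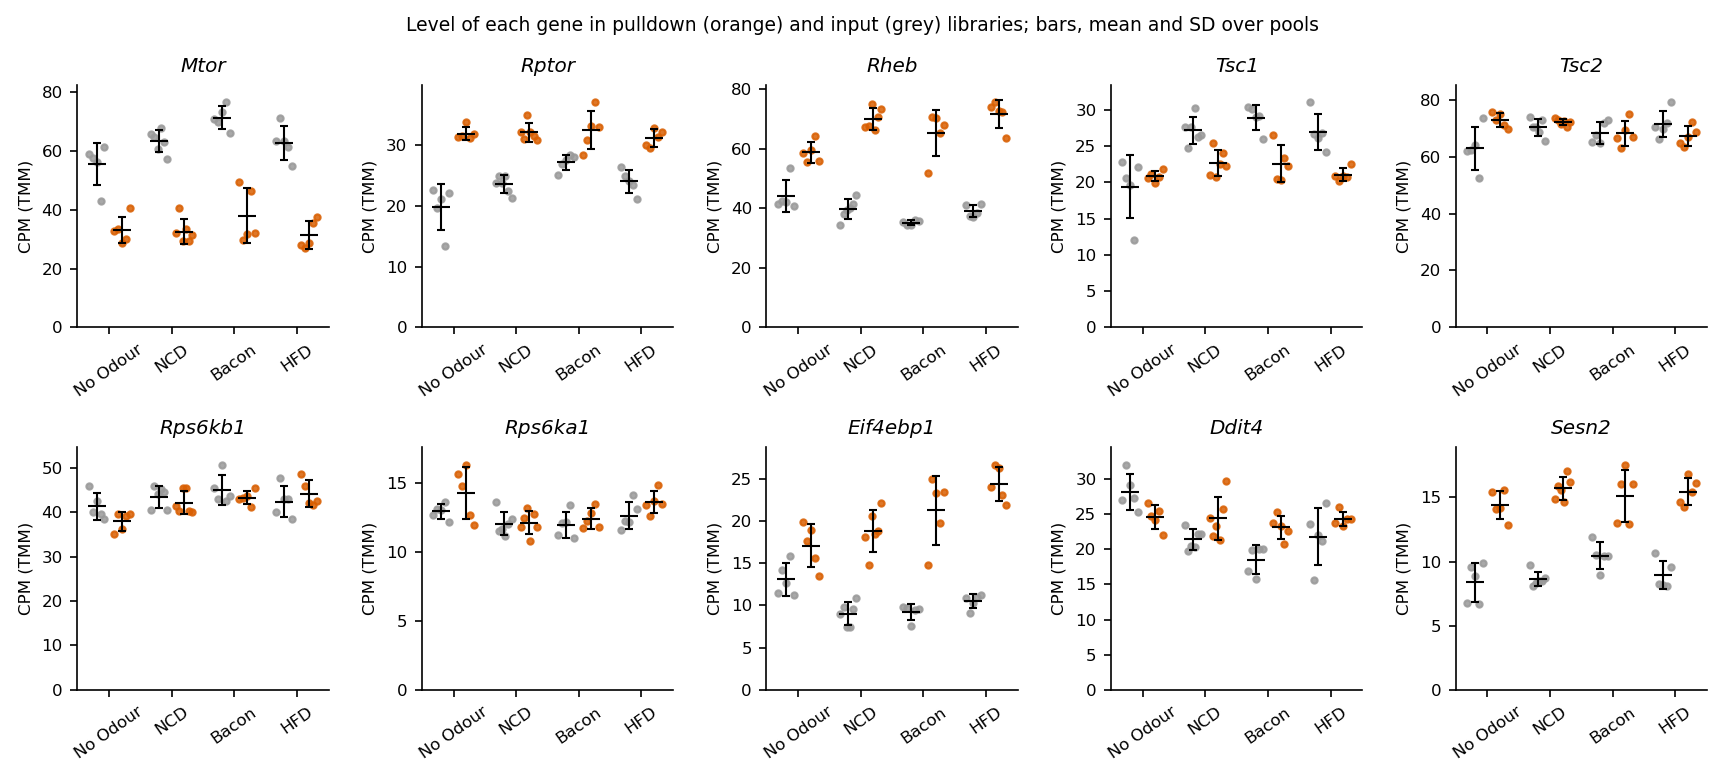
Level of each of the 10 members in every pool, input and pulldown side by side, as CPM on TMM library sizes for the 4 odour groups; points are pools and bars are group means with SD. Mtor lay below its input in all 21 pools, whereas Rptor, Rheb and Sesn2 lay above it in all 21.

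Among the regulators without odour, Sesn2 had the highest ratio, at 2.27, 1.47, 1.59, 2.34 and 1.29 in the 5 pools (log2 fold change 0.79 ± 0.117, SE, adjusted p = 2.07e-06). Rheb was at 1.41, 1.30, 1.42, 1.19 and 1.37 (0.42 ± 0.067, SE, adjusted p = 6.75e-06). Rheb and Sesn2, an activator and an inhibitor of the same complex, were thus both enriched in every pool. Eif4ebp1 was higher by 0.39 ± 0.128 (SE, adjusted p = 0.0119) and Tsc2 by 0.22 ± 0.058 (SE, adjusted p = 0.00222). The Eif4ebp1 call was lost without No Odour pool 1 (0.28, adjusted p = 0.0853) and without pool 3 (0.34, adjusted p = 0.0538). Both S6 kinases, Tsc1 and Ddit4 did not pass, with log2 fold changes of -0.12 for Rps6kb1, 0.13 for Rps6ka1, 0.13 for Tsc1 and -0.20 for Ddit4 (adjusted p = 0.116, 0.111, 0.262 and 0.0639).

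After an odour, the pulldown-to-input ratios of Rheb, Eif4ebp1 and Ddit4 rose and that of Tsc1 fell in each of the 3 odour groups, and Rptor and Tsc2 fell with Bacon and HFD. Mtor, Sesn2, Rps6kb1 and Rps6ka1 did not pass in any of them. With NCD odour 3 members rose and 1 fell, where 6.79% of all genes rose and 6.31% fell. With Bacon odour 3 rose and 3 fell, where 12% of all genes rose and 10.5% fell, and with HFD odour 3 rose and 3 fell, where 7.67% rose and 8.03% fell. The median log2 change of the members was -0.03, -0.14 and -0.01, against -0.005, 0.0 and -0.011 over all genes. All 3 comparisons share the 5 No Odour pools, so the recurrence of a gene across them is not independent.

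In the input, 1 member rose and 2 fell with NCD odour (11.4% and 11.1% of all genes), 4 rose and 3 fell with Bacon odour (18.7% and 19.8%), and 2 rose and 2 fell with HFD odour (11% and 9.78%). The ratio has the input as its denominator, so ratio and input comparisons share the input libraries and a lower input raises the ratio. Each member is therefore also given from the pulldown libraries alone, in which 2 members passed with NCD odour, 1 with Bacon and 3 with HFD. In the pulldown alone, 9.7% of all genes rose and 8.52% fell with NCD odour, 8.56% and 7.75% with Bacon, and 11.2% and 8.94% with HFD. The share of ribosomal RNA moves with the odour groups. With this share added to the fit, 4 of the 16 odour calls on the ratio and 0 of the 14 on the input remained, with 0 members at an unadjusted p under 0.05 in each of the 3 input comparisons. Over all genes the same fit took the input calls from 4765, 8153 and 4392 to 15, 9 and 15 for NCD, Bacon and HFD. Odour and rRNA share cannot be told apart in the input.

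**Figure D2:**
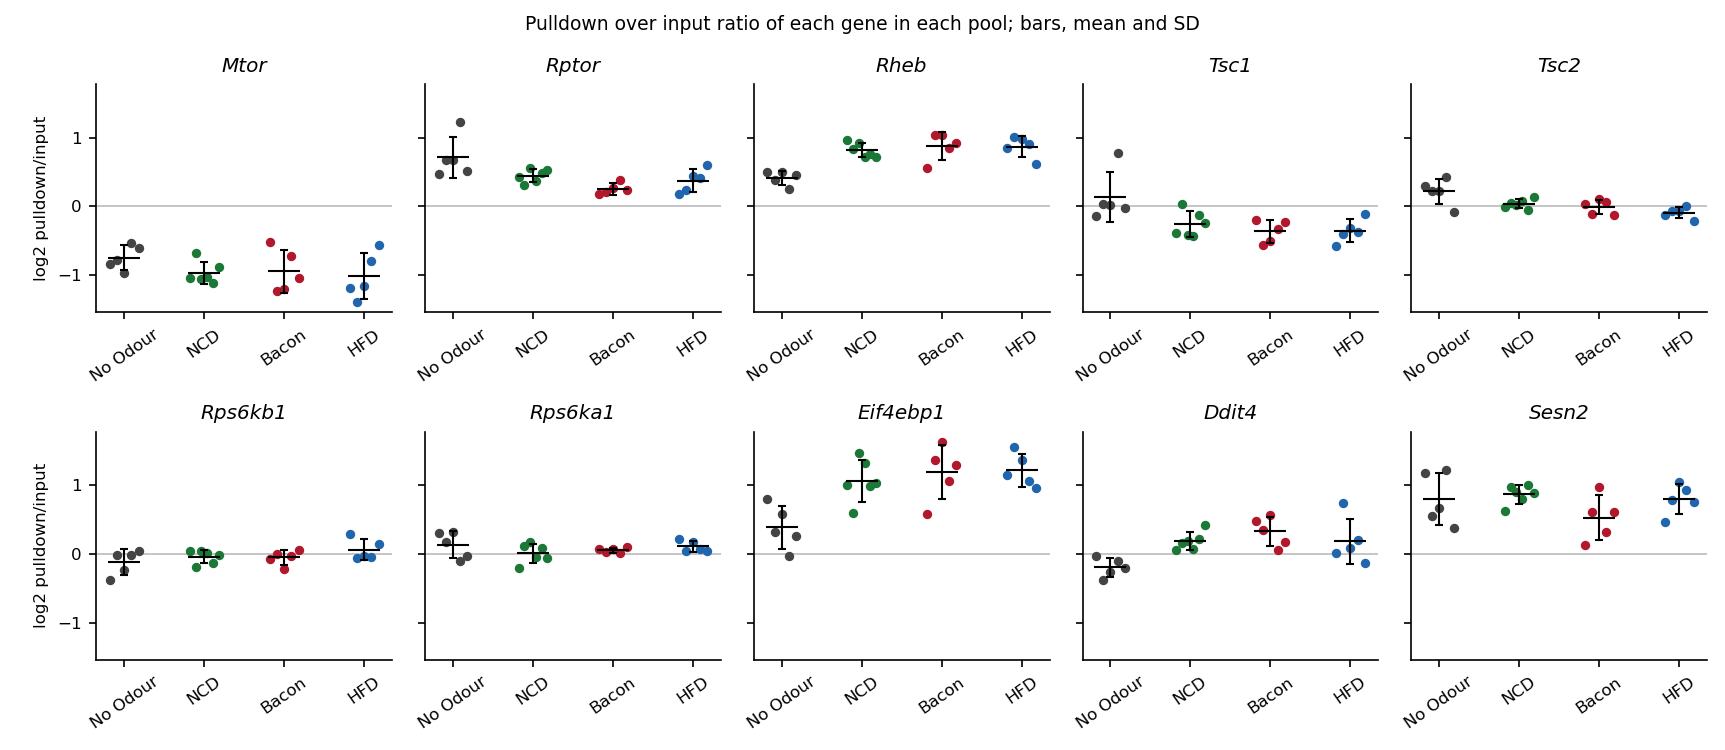
Pulldown CPM over input CPM of each member in every pool on a log2 axis, where 0 marks equal levels; points are pools and bars are group means with SD. The Rheb ratio of every odour pool was above that of every No Odour pool, and the Ddit4 ratio crossed from below 0 in all 5 No Odour pools to above 0 in 15 of 16 odour pools.

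Rheb, the GTPase that turns the complex on, rose in the ratio with each odour, also when any 1 pool was left out. Its ratio was 1.41, 1.30, 1.42, 1.19 and 1.37 in the No Odour pools. It was 1.65 at the lowest, 1.74 at the median and 1.95 at the highest with NCD odour (log2 fold change 0.40 ± 0.090, SE, 1.32-fold, adjusted p = 0.00593). With Bacon odour it was 1.47, 2.05, 2.05, 1.81 and 1.90 (0.46 ± 0.094, SE, 1.38-fold, adjusted p = 0.00107). Every odour pool was above every No Odour pool, so the groups did not overlap. With HFD odour it was 1.79, 2.01, 1.96, 1.88 and 1.53 (0.45 ± 0.094, SE, 1.37-fold, adjusted p = 0.00235).

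The rise of Rheb was also seen in the pulldown libraries taken alone. Its pulldown level was 58.6, 55.5, 59.6, 64.1 and 55.9 CPM without odour, 66.2 to 74.9 CPM with NCD, and 74.0, 75.5, 72.8, 72.3 and 63.5 CPM with HFD. The NCD pools were all above the No Odour pools (log2 fold change 0.25, adjusted p = 0.00936), and 4 of the 5 HFD pools were (0.29, adjusted p = 0.00337). With Bacon odour the pulldown level was 51.9, 70.6, 70.4, 65.2 and 67.9 CPM, with pool 1 below all the others, and the change did not pass (0.16, adjusted p = 0.118). The Rheb input fell with Bacon odour, from 41.5, 42.6, 42.1, 53.7 and 40.8 CPM to 35.3, 34.4, 34.3, 36.1 and 35.7 CPM (-0.33 ± 0.072, SE, adjusted p = 0.000935). With the rRNA share in the fit, the Rheb ratio kept its rise with NCD (0.36, adjusted p = 0.0254) and with HFD (0.42, adjusted p = 0.00693) but not with Bacon (0.38, adjusted p = 0.0997).

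Tsc1, the stabilising partner of the inhibitor of Rheb, rose in the input with all 3 odours. Its input level was 22.8, 20.6, 19.6, 12 and 22.1 CPM without odour. It was 24.7 CPM at the lowest, 27.0 at the median and 30.2 at the highest with NCD odour (0.48 ± 0.106, SE, adjusted p = 0.00353). With Bacon odour it was 30.4, 30.1, 29.0, 29.2 and 26.0 CPM (0.57 ± 0.110, SE, adjusted p = 0.000321). All odour pools lay above all No Odour pools. With HFD odour it was 31.0, 26.7, 26.1, 26.9 and 24.2 CPM (0.47 ± 0.111, SE, adjusted p = 0.00533).

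In the pulldown Tsc1 stayed between 19.9 and 26.6 CPM over all 21 pools, and its pulldown-only log2 changes of 0.12, 0.13 and 0.02 with NCD, Bacon and HFD did not pass (adjusted p = 0.280, 0.252 and 0.874). Its ratio was 0.909, 1.03, 1.01, 1.72 and 0.988 without odour and fell by 0.39 on the log2 scale with NCD (adjusted p = 0.0475), by 0.49 with Bacon (adjusted p = 0.0107) and by 0.48 with HFD (adjusted p = 0.0178). The ratio was below 1 in 15 of the 16 odour pools. No Odour pool 4 held the lowest Tsc1 input of all pools, and without it the falls in the ratio were 0.23 with NCD (adjusted p = 0.183), 0.30 with Bacon (adjusted p = 0.0613) and 0.31 with HFD (adjusted p = 0.0685), none of which passed. The NCD fall was called in 8 of the 21 fits that left out 1 pool, those without Bacon pool 1, 2 or 3, HFD pool 2 or 6, NCD pool 2 or No Odour pool 1 or 6, and the HFD fall was also lost without HFD pool 1 (0.41, adjusted p = 0.0621). The input rises stayed past the threshold when any 1 pool was left out.

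Tsc2, the GTPase-activating partner of Tsc1, changed less. Its ratio was 1.22, 1.17, 1.17, 1.35 and 0.949 without odour and 0.917, 0.954, 0.959, 1.01 and 0.867 with HFD odour (log2 fold change -0.31 ± 0.082, SE, adjusted p = 0.0123). Only 2 of the 5 HFD pools were below all No Odour pools. With Bacon odour the fall of 0.23 (adjusted p = 0.0489) was called in 4 of the 21 fits that left out 1 pool, those without Bacon pool 1, Bacon pool 3, HFD pool 6 or No Odour pool 6, and without No Odour pool 4 it was 0.14 (adjusted p = 0.236). The HFD fall held when the rRNA share was in the fit (-0.33, adjusted p = 0.0150). Neither the input nor the pulldown level of Tsc2 passed on its own. The end of Tsc2 overlaps Pkd1 on the other strand, and 9.72% of the 31-base words of its transcripts are shared with other genes, so its counts are less certain.

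The kinase itself passed in the input with Bacon odour and in no other comparison with an odour. Mtor was at 59.0, 57.6, 56.4, 43.1 and 61.3 CPM in the No Odour input and at 70.8, 70.0, 73.5, 76.6 and 66.2 CPM in the Bacon input (0.36 ± 0.079, SE, 1.29-fold, adjusted p = 0.000811). The Bacon pools were all above the No Odour pools. With NCD the input change was 0.19 (adjusted p = 0.0712) and with HFD 0.18 (adjusted p = 0.103), and the difference between Bacon and NCD input did not pass (0.17, adjusted p = 0.179). In the Bacon pulldown, pools 1 and 4 were at 49.6 and 46.6 CPM and the other 3 at 29.8, 31.9 and 32.3 CPM, the latter within the No Odour range of 28.8 to 40.6 CPM. The Mtor ratio changed by -0.22, -0.20 and -0.27 with the 3 odours (adjusted p = 0.320, 0.382 and 0.220).

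Rptor, the substrate-binding subunit, followed Mtor in the input. It was at 22.5, 19.7, 21.2, 13.3 and 22.1 CPM without odour and at 25.1, 26.8, 27.6, 28.3 and 28.0 CPM with Bacon odour (0.46 ± 0.096, SE, adjusted p = 0.000668). Its pulldown level lay between 28.4 and 37.0 CPM in all 21 pools, and its pulldown-only log2 changes were 0.01, 0.04 and -0.03. The Rptor ratio with Bacon odour was 1.13, 1.15, 1.20, 1.31 and 1.18, all below the lowest No Odour ratio of 1.39 (-0.45 ± 0.111, SE, adjusted p = 0.00441). Without No Odour pool 4, whose ratio was 2.34, this change was -0.30 (adjusted p = 0.0224). With HFD odour the ratio fell by 0.33 (adjusted p = 0.0439) and the input rose by 0.28 (adjusted p = 0.0428), and both calls were lost without No Odour pool 4 (-0.19, adjusted p = 0.178, and 0.16, adjusted p = 0.111). Leaving out any 1 pool, the HFD ratio of Rptor was called in 8 of 21 fits, those without Bacon pool 1, 2, 3 or 4, HFD pool 6, NCD pool 2 or No Odour pool 1 or 6. The HFD input was called in 11 of 21, being lost without Bacon pool 1 or 2, HFD pool 1, 2, 3 or 5, NCD pool 3 or 5 or No Odour pool 2 or 4, and over these fits it rose by 0.16 to 0.29 (adjusted p = 0.0501 to 0.114).

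**Figure D3:**
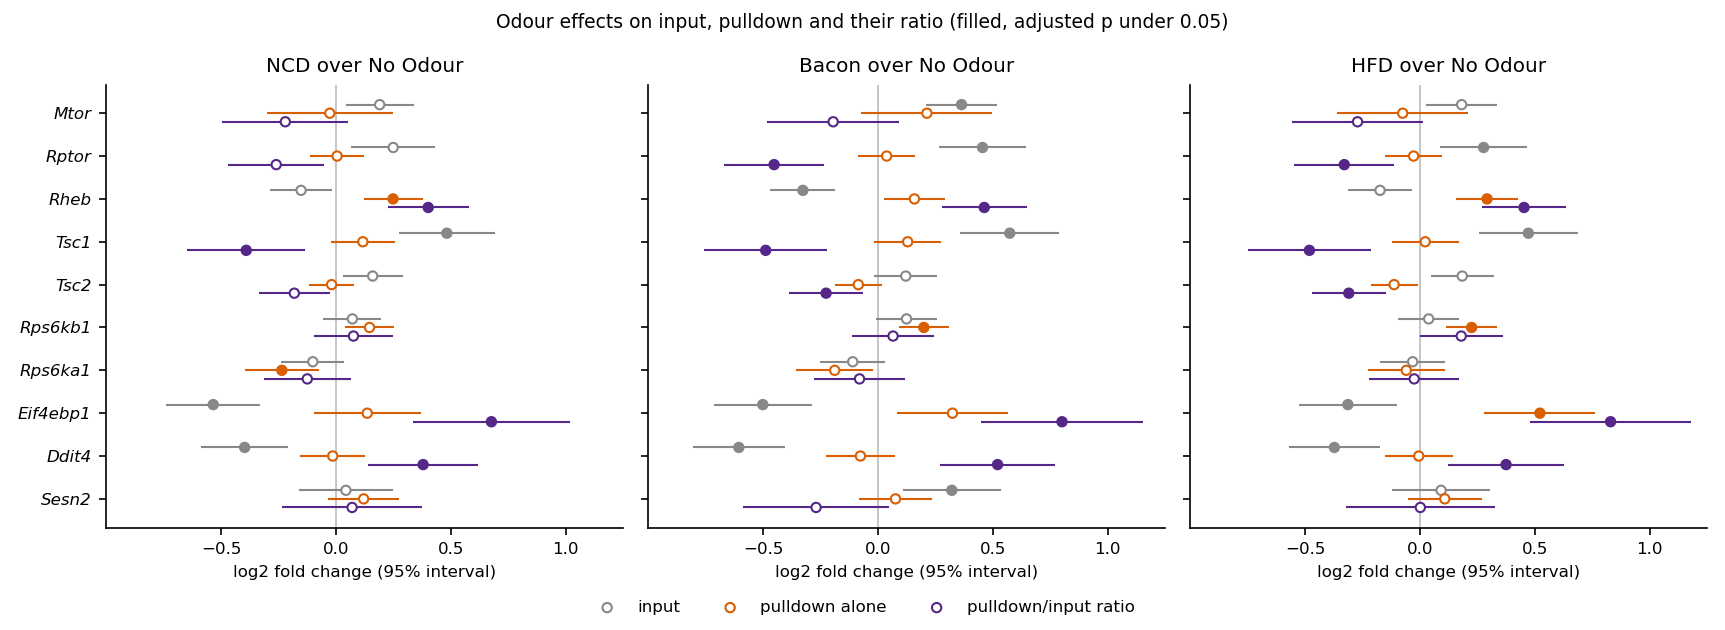
Log2 fold change over No Odour with its 95% interval for each member and odour, in the pulldown-to-input ratio, the input and the pulldown libraries alone; filled symbols passed an adjusted p of 0.05. Rheb and Eif4ebp1 were above 0 in the ratio with every odour, and for Tsc1, Ddit4 and Rptor the input moved while the pulldown level stayed near 0.

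Eif4ebp1, which encodes the translational repressor that complex 1 inactivates, had the largest change in ratio of the 10 members with each odour. Its ratio was 1.74, 1.25, 1.50, 0.982 and 1.19 without odour. With NCD odour it was 1.50 at the lowest, 2.02 at the median and 2.76 at the highest (log2 fold change 0.68 ± 0.174, SE, 1.60-fold, adjusted p = 0.0130). With Bacon odour it was 1.50, 2.59, 3.09, 2.09 and 2.46 (0.80 ± 0.181, SE, 1.74-fold, adjusted p = 0.00259). In each of these groups 1 pool lay within the No Odour range and the rest lay above it. With HFD odour it was 2.21, 2.93, 2.57, 2.09 and 1.94, all above the No Odour pools (0.83 ± 0.180, SE, 1.78-fold, adjusted p = 0.00351). Of the 31-base words of the Eif4ebp1 transcripts, 7.20% are shared with 311 other genes, so its counts are less certain, as for Tsc2.

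The input and the pulldown level of Eif4ebp1 are given for each odour. In the input Eif4ebp1 fell from 11.4, 14.2, 12.6, 15.9 and 11.3 CPM to 7.40 to 10.8 CPM with NCD (-0.53 ± 0.105, SE, adjusted p = 0.00167) and to 9.85, 9.65, 7.56, 9.49 and 9.56 CPM with Bacon (-0.50 ± 0.109, SE, adjusted p = 0.000864). Neither odour group overlapped with No Odour. With HFD odour the input was 10.9, 9.12, 10.2, 11.1 and 11.3 CPM (-0.31, adjusted p = 0.0419), a call that held in 14 of 21 fits with 1 pool left out. It was lost without HFD pool 1, 2, 3 or 5 or No Odour pool 2, 3 or 4, with values from -0.33 to -0.24 (adjusted p = 0.0517 to 0.122). In the pulldown alone, Eif4ebp1 was at 19.9, 17.7, 18.9, 15.6 and 13.5 CPM without odour and at 24.0, 26.7, 26.3, 23.1 and 21.9 CPM with HFD odour, with no overlap (0.52, adjusted p = 0.00392). The pulldown level with NCD changed by 0.14 (adjusted p = 0.485) and with Bacon by 0.32 (adjusted p = 0.0757). The difference between HFD and NCD was not called, either for the ratio (0.15, adjusted p = 1.00) or for the pulldown alone (0.39, adjusted p = 0.133). When the fit included the rRNA share, the ratio rise passed with HFD (0.76, adjusted p = 0.0111) and not with NCD (0.59, adjusted p = 0.0566) or Bacon (0.61, adjusted p = 0.171).

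Ddit4, the stress-induced inhibitor that acts through the TSC proteins, fell in the input with every odour. Its input level was 27.1, 32.1, 29.2, 27.4 and 25.4 CPM without odour. With NCD odour it was 19.7 CPM at the lowest, 21.3 at the median and 23.5 at the highest (-0.40 ± 0.097, SE, adjusted p = 0.00630). With Bacon odour it was 17.0, 19.9, 15.7, 20.0 and 20.1 CPM (-0.61 ± 0.102, SE, 0.657-fold, adjusted p = 0.000103). No NCD or Bacon pool reached the No Odour range. With HFD odour it was 23.6, 15.6, 22.0, 21.2 and 26.6 CPM, 4 of 5 below all No Odour pools (-0.37 ± 0.102, SE, adjusted p = 0.0122).

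The pulldown level of Ddit4 did not follow. It was 26.6, 24.7, 24.2, 25.4 and 22.0 CPM without odour and lay between 20.8 and 29.7 CPM in the 16 odour pools, with pulldown-only log2 changes of -0.014, -0.0763 and -0.0051 (adjusted p = 0.928, 0.542 and 0.975). The ratio accordingly went from 0.982, 0.770, 0.829, 0.929 and 0.868 without odour to 1.40, 1.27, 1.48, 1.04 and 1.13 with Bacon (0.52 ± 0.128, SE, adjusted p = 0.00458). With NCD the ratio rose by 0.38 (adjusted p = 0.0405) and with HFD by 0.38 (adjusted p = 0.0466). Leaving out 1 pool, the NCD rise was called in 13 of 21 fits and was lost without NCD pool 2, 3, 4, 5 or 6 or No Odour pool 2, 3 or 6, with values from 0.33 to 0.40 (adjusted p = 0.0505 to 0.0936). The HFD rise was called in 8 of 21 fits, those without Bacon pool 1, 3 or 4, HFD pool 1 or 6, NCD pool 6 or No Odour pool 1 or 4, and without HFD pool 2 it was 0.24 (adjusted p = 0.178). With the rRNA share included, none of the 3 Ddit4 ratio changes passed (0.28, 0.30 and 0.30, adjusted p = 0.174, 0.333 and 0.126).

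Sesn2, the leucine-sensing inhibitor, did not pass in the ratio. The ratio was 1.54 to 2.01 with NCD, 1.09 to 1.97 with Bacon and 1.38 to 2.07 with HFD, against 1.29 to 2.34 without odour. The changes were 0.07, -0.27 and 0.00 (adjusted p = 0.822, 0.256 and 0.998), and their 95% intervals ran from -0.24 to 0.38, from -0.59 to 0.05 and from -0.32 to 0.33. The input rose with Bacon odour, from 6.78, 9.60, 8.90, 6.67 and 9.90 CPM to 11.9, 10.5, 8.92, 10.4 and 10.5 CPM (0.32 ± 0.108, SE, adjusted p = 0.0205), with 4 of 5 Bacon pools above all No Odour pools. That call was lost without Bacon pool 1 (0.26, adjusted p = 0.0858), No Odour pool 1 (0.25, adjusted p = 0.0728) or No Odour pool 4 (0.24, adjusted p = 0.0842).

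The S6 kinases themselves passed neither in the ratio nor in the input with any odour. Rps6kb1, the p70 S6 kinase, had ratio changes of 0.08, 0.07 and 0.18 with NCD, Bacon and HFD (adjusted p = 0.626, 0.673 and 0.192), with 95% intervals from -0.10 to 0.25, from -0.11 to 0.25 and from -0.00047 to 0.36. In the pulldown libraries alone it rose from 35.2, 39.7, 36.2, 39.2 and 39.7 CPM to 43.1, 43.1, 43.6, 41.3 and 45.5 CPM with Bacon (0.20, adjusted p = 0.0155) and to 48.7, 45.9, 42.2, 41.7 and 42.6 CPM with HFD (0.23, adjusted p = 0.00567). The Bacon and HFD pools were all above the No Odour pools, while the NCD pools, at 40.1 to 45.6 CPM, were also above them but did not pass (0.15, adjusted p = 0.0608). Rps6ka1, the ERK-side kinase, had ratio changes of -0.12, -0.08 and -0.03 (adjusted p = 0.428, 0.633 and 0.901), and its pulldown level fell with NCD odour, from 11.9 to 16.3 CPM without odour to 10.8 to 13.1 CPM (-0.24, adjusted p = 0.0463). Rps6kb1 overlaps Rnft1 and Rps6ka1 overlaps the antisense gene Gm12977, and the strand used in counting is not given in the sources used here. Of the 31-base words of their transcripts, 1.47% and 4.65% are shared with other genes. Reads that lie within the shared parts cannot be told apart.

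Between the diet odours no member passed in any of the 6 comparisons with edgeR, and none did with DESeq2. In the Bacon over NCD input this depended on the libraries in the fit: with only these groups fitted 5 members passed, Mtor, Rptor and Sesn2 higher and Rheb and Ddit4 lower (0.18, 0.21, 0.28, -0.17 and -0.20, adjusted p = 0.0116, 0.00733, 0.0115, 0.0332 and 0.0397), as the calls over all genes went from 510 to 3963. Without No Odour pool 4, 3 members passed there, Mtor, Rptor and Rheb, and without HFD pool 2 Ddit4 passed in the HFD over Bacon input. For the ratio, 6, 15 and 23 genes were called in the whole table for Bacon over NCD, HFD over NCD and HFD over Bacon, which is 0.0283%, 0.0709% and 0.109% of genes in either direction. For the input the shares were 2.41%, 0.241% and 0.463%. Unadjusted p-values under 0.05 were seen for 1, 0 and 0 members in the ratio and for 5, 1 and 4 in the input with edgeR, and for 1, 0 and 0 and for 5, 0 and 4 with DESeq2. The member log2 differences in the ratio lay between -0.34 and 0.14 for Bacon over NCD, between -0.13 and 0.15 for HFD over NCD and between -0.15 and 0.27 for HFD over Bacon. Over the members, the lowest and highest ends of the 95% intervals were -0.64 and 0.46, -0.37 and 0.49, and -0.40 and 0.59. The lowest and the highest end came from different members. Sesn2 in the Bacon over NCD ratio had the largest of the ratio differences (-0.34 ± 0.154, SE, adjusted p = 0.677).

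The members that changed in opposite directions also differed in transcript length. The input of coding genes moved with length: with Bacon odour the median log2 change was -0.35, -0.09, 0.05 and 0.24 from the shortest to the longest of 4 equal length classes, with 51.5% of the shortest class lower and 52.0% of the longest higher. In the ratio the medians for Bacon were 0.29, 0.05, -0.08 and -0.26. Ddit4 at 1755 bases and Rheb at 1784 bases are in the shortest class, Eif4ebp1 at 1997 bases is at the low end of the second, and Rps6ka1 at 3135 and Sesn2 at 3475 bases are in the third. Rps6kb1 at 5531, Tsc2 at 6266, Rptor at 6594, Tsc1 at 7702 and Mtor at 8564 bases are in the longest. The 3 members whose ratio rose are thus the 3 shortest, and the 3 whose ratio fell are all in the longest class, as are Mtor and Rps6kb1, which did not pass. The part of transcript length in the members' changes was not tested.

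**Figure D4:**
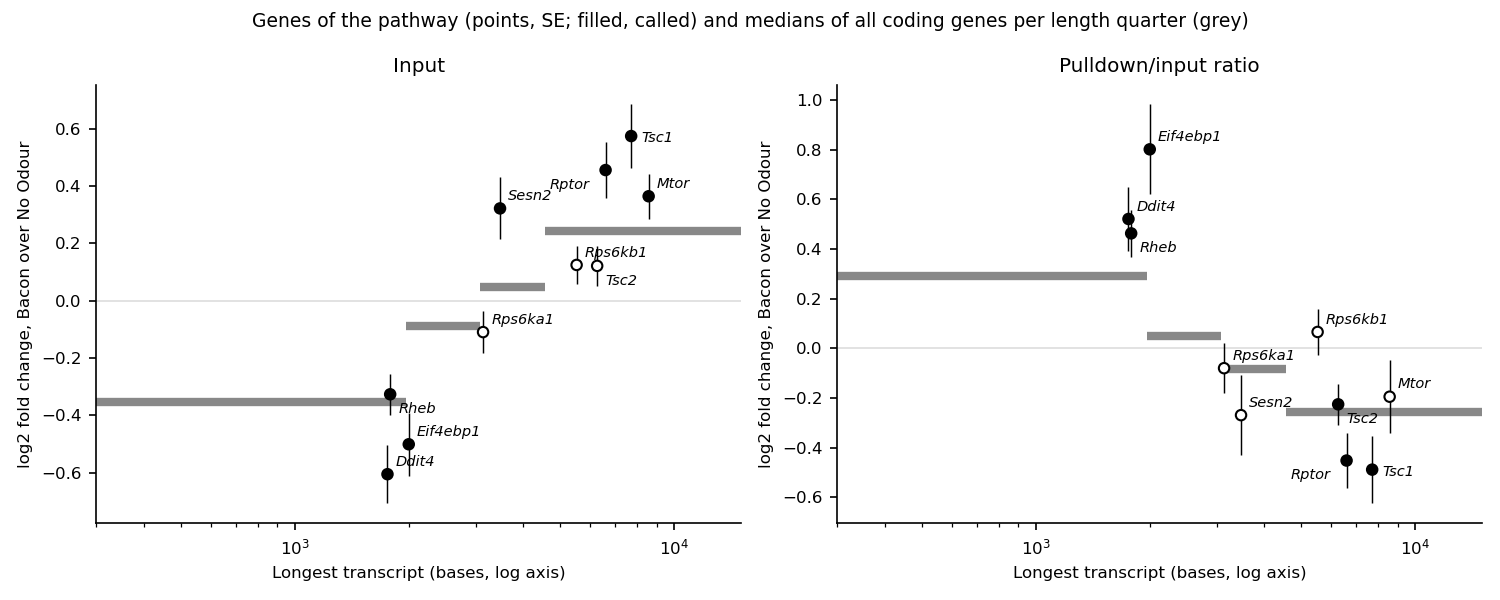
Log2 fold change over No Odour plotted against transcript length (log axis) for the 10 members with Bacon odour, in the input and in the ratio, with SE; grey bars are the medians of coding genes in each of the 4 length classes and filled points passed an adjusted p of 0.05. In the ratio Ddit4, Rheb and Eif4ebp1 lie high at the short end, and Rptor, Tsc1 and Tsc2 lie below 0 at the long end, where Rps6kb1 lies at 0.07.

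Around the members, 91 other genes of the pathway were grouped in 6 lists, of which 90 were tested. Without odour 44 of the 90 were higher in the pulldown and 28 lower (31% and 28.5% of all genes). In the ratio 8 rose and 6 fell with NCD (6.79% and 6.31% of all genes), 14 and 17 with Bacon (12% and 10.5%), and 9 and 12 with HFD (7.67% and 8.03%). In the input 23 rose and 12 fell with NCD (11.4% and 11.1% of all genes), 27 and 27 with Bacon (18.7% and 19.8%), and 20 and 14 with HFD (11% and 9.78%). Named genes are the up to 3 of each list with the smallest p in a comparison. The length trend of coding genes given above was not set apart in these counts. With Bacon odour, 32.2% of the shortest length class rose in the ratio and 33.2% of the longest fell. The part of length and of the rRNA share in the list counts was not tested.

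The lysosomal amino-acid branch, the Rag GTPases, their Ragulator anchor and the GATOR complexes that bring complex 1 to Rheb, held 28 genes. In the ratio 6 rose and 0 fell with NCD, 8 rose and 3 fell with Bacon, and 6 rose and 1 fell with HFD. Over all genes 6.79%, 12% and 7.67% rose in the ratio and 6.31%, 10.5% and 8.03% fell. The list medians were 0.05, 0.06 and 0.05, against -0.005, 0.0 and -0.011 over all genes. The Ragulator subunit Lamtor3 rose with each odour (0.36 ± 0.094, 0.47 ± 0.098 and 0.49 ± 0.098, SE, adjusted p = 0.0127, 0.00142 and 0.00192). Lamtor2 rose with Bacon by 0.76 (adjusted p = 0.00146), and Lamtor5 with Bacon by 0.60 (adjusted p = 0.00309) and with HFD by 0.50 (adjusted p = 0.0166). In the input of the list 11 of 28 fell with Bacon and 6 rose, where 19.8% of all genes fell and 18.7% rose. Lamtor2 changed by -0.98 (adjusted p = 3.62e-05) and Lamtor1 by -0.53 (adjusted p = 9.80e-05). Of the other mTOR complex subunits, 10 in number, 0 changed in the ratio with NCD and HFD and 1 with Bacon, where Rictor of complex 2 fell (-0.34, adjusted p = 0.0416). In the input 3, 2 and 1 of these 10 rose and 1, 2 and 1 fell with NCD, Bacon and HFD. Over all genes 11.4%, 18.7% and 11% rose in the input and 11.1%, 19.8% and 9.78% fell. The complex inhibitor Deptor rose in the input with Bacon (0.67, adjusted p = 5.77e-05) and HFD (0.52, adjusted p = 0.00212). Rictor rose there with NCD (0.28, adjusted p = 0.0140) and Bacon (0.44, adjusted p = 0.000226), and Mapkap1 with NCD (0.18, adjusted p = 0.0272). Prr5 fell with each odour (-0.49, -0.49 and -0.45, adjusted p = 0.00513, 0.00231 and 0.0109).

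Of the 16 genes of the growth-factor and PI3K-AKT branch, 7, 9 and 8 rose in the input with NCD, Bacon and HFD, where 11.4%, 18.7% and 11% of all genes rose, and 1, 1 and 0 fell, with list medians of 0.20, 0.21 and 0.21 against all-gene medians of -0.02, 0.01 and -0.01. Irs1, the insulin receptor substrate, rose in the input with each odour (0.38, 0.43 and 0.42, adjusted p = 0.00162, 0.000171 and 0.00113). In the ratio 1, 0 and 0 of the 16 rose, where 6.79%, 12% and 7.67% of all genes rose. There 2, 5 and 4 fell, where 6.31%, 10.5% and 8.03% of all genes fell. Irs1 fell in the ratio by 0.40, 0.55 and 0.52 (adjusted p = 0.00551, 0.000280 and 0.000796) and so did Pik3cb, a catalytic subunit of PI3 kinase, by 0.51, 0.58 and 0.45 (adjusted p = 0.00797, 0.00171 and 0.0165). Rhebl1 rose in the ratio with NCD (0.85, adjusted p = 0.0296), and its input fell (-0.85, adjusted p = 0.00478). Of 16 genes for S6, its other kinases and its phosphatases, the ratio rose for 0, 3 and 0 and fell for 1, 3 and 1. Over all genes 6.79%, 12% and 7.67% rose in the ratio and 6.31%, 10.5% and 8.03% fell. The kinase gene Rps6ka2 fell with each odour (-0.33, -0.50 and -0.40, adjusted p = 0.0431, 0.00235 and 0.0179). Rps6 itself, the protein the antibody recognises when phosphorylated, was at a mean of 184 to 221 CPM in the input groups and of 227 to 246 CPM in the pulldown groups.

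Translation effectors downstream of the complex went both ways: of 11 tested, the ratio rose for 1, 2 and 2 and fell for 2, 5 and 5 with NCD, Bacon and HFD. Over all genes 6.79%, 12% and 7.67% rose and 6.31%, 10.5% and 8.03% fell. Eif4e, the cap-binding protein that Eif4ebp1 holds, rose in the ratio with each odour (0.30, 0.44 and 0.35, adjusted p = 0.0362, 0.00206 and 0.0178). Its scaffold Eif4g1 fell in the ratio with each odour (-0.37, -0.45 and -0.37, adjusted p = 0.00460, 0.000579 and 0.00481). Pdcd4, a translation inhibitor removed after S6 kinase phosphorylation, rose with Bacon (0.52, adjusted p = 0.000494) and HFD (0.51, adjusted p = 0.00111). In the AMPK branch, which inhibits complex 1 when energy is low, 0, 1 and 1 of 9 rose in the ratio and 1, 0 and 1 fell. The shares over all genes are those given for the translation effectors. The AMPK catalytic subunit Prkaa1 fell with NCD (-0.37, adjusted p = 0.0371) and HFD (-0.46, adjusted p = 0.0125).

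Ddit4, Sesn2 and Eif4ebp1 are known targets of the stress factor ATF4, and Ddit4 is also a glucocorticoid target, so genes of both responses were set beside them. Of 8 ATF4-responsive genes, 4, 5 and 5 rose in the ratio with NCD, Bacon and HFD and 0 fell, with list medians of 0.33, 0.46 and 0.41, where 6.79%, 12% and 7.67% of all genes rose. Nupr1, a stress-induced cofactor, rose by 0.84, 0.94 and 1.04 (adjusted p = 0.000154, 4.70e-05 and 1.24e-05), Atf4 itself by 0.54, 0.67 and 0.68 (adjusted p = 0.0105, 0.00126 and 0.00213) and the asparagine synthetase Asns by 0.34, 0.49 and 0.50 (adjusted p = 0.0125, 0.000499 and 0.000872). In the input 3, 5 and 3 of the 8 fell and 0 rose, where 11.1%, 19.8% and 9.78% of all genes fell, with Ddit3 at -0.63, -0.74 and -0.64 (adjusted p = 3.22e-05, 3.53e-06 and 5.95e-05). Of 9 glucocorticoid-responsive genes, 0, 2 and 0 rose in the ratio and 0 fell. Over all genes 6.79%, 12% and 7.67% rose in the ratio and 6.31%, 10.5% and 8.03% fell. In the input 1, 2 and 2 of the 9 rose and 3, 3 and 3 fell. Over all genes 11.4%, 18.7% and 11% rose in the input and 11.1%, 19.8% and 9.78% fell. The circadian and glucocorticoid gene Per1 rose (0.39, 0.55 and 0.39, adjusted p = 0.000966, 1.68e-05 and 0.00120) while Mt1 fell (-0.73, -1.03 and -0.67, adjusted p = 0.00376, 0.000122 and 0.00807). Tsc22d3 fell with NCD and Bacon (-0.40 and -0.44, adjusted p = 0.00388 and 0.000781), and Zbtb16 fell with HFD (-0.61, adjusted p = 0.00315). Ddit4 and Eif4ebp1 thus fell in the input together with Ddit3, and Sesn2 did not. Among the shortest class of coding genes, 32.2% rose in the ratio and 51.5% fell in the input with Bacon odour. The part of transcript length and of the rRNA share in these 2 lists was not tested.

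**Figure D5:**
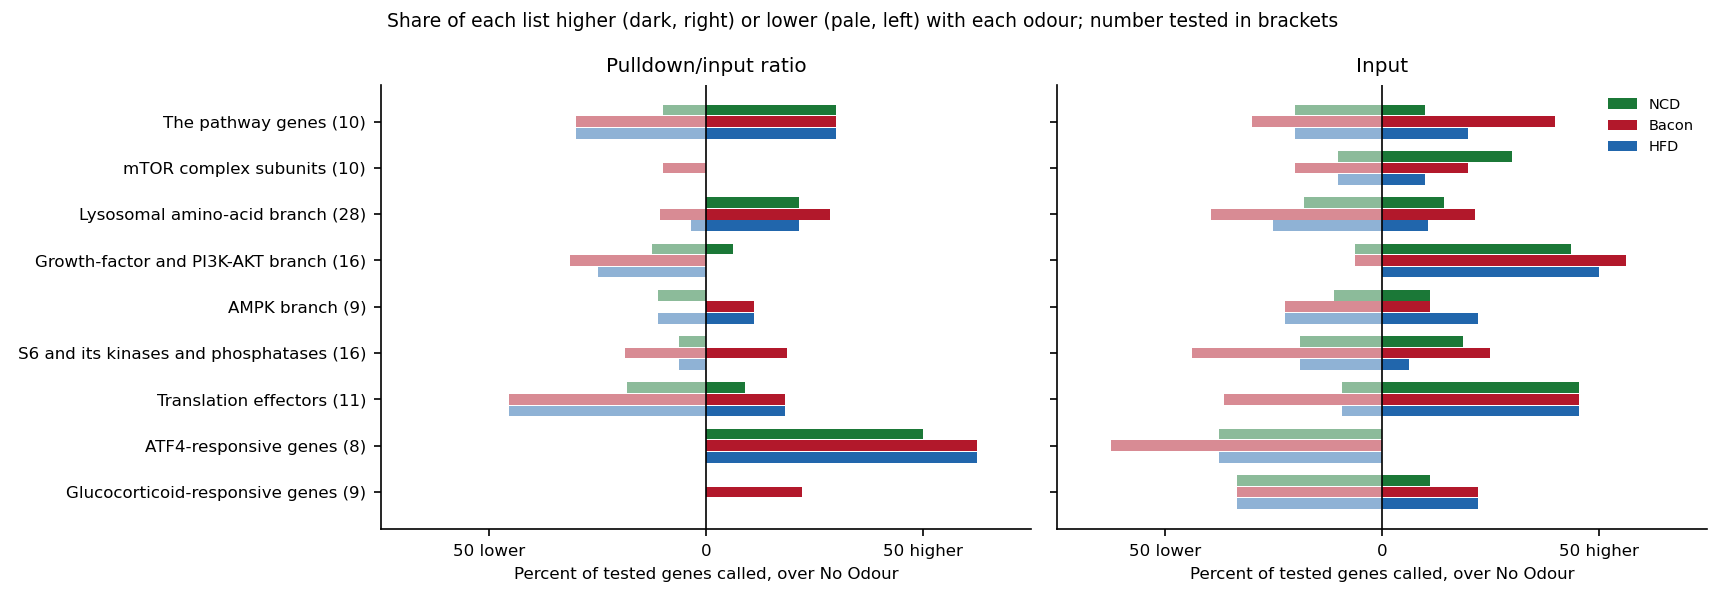
Genes called higher (dark bars, right) and lower (pale bars, left) in each list, as a percentage of the genes tested in it, for the ratio and the input with each odour over No Odour. For the ATF4-responsive genes the bars point right in the ratio (4, 5 and 5 of 8) and left in the input (3, 5 and 3 of 8).

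The genes whose levels ran closest to a member over the 42 libraries were picked by the root mean square difference of log2 CPM after centring each gene on its mean, among 21167 other genes. For Rheb the nearest was the Ragulator gene Lamtor3, at 0.0747, followed by Cdc26 and Zfp706. For Rptor it was Prrc2c (0.0714), for Tsc2 Pacs1 (0.0816), for Mtor Xrn1 (0.0839) and for Tsc1 Med12l (0.101). For Ddit4 it was Zmat2 (0.110), for Sesn2 Zbtb7b (0.126) and for Eif4ebp1 Dpm2 (0.169). No member was among the 3 nearest genes of another. The points share libraries and pools, so these are descriptions.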

How the data were processed

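RNA was sequenced from 21 pools of main olfactory epithelium, each as a library of RNA pulled down with an antibody to phosphorylated S6 and an input library, 42 in all. Per the labels and the study's methods, libraries were made with the Ovation RNA-Seq System V2 and Nextera XT and quantified by the authors with Salmon against GRCm38, and the authors used DESeq2 1.26. The deposited table holds estimated counts per gene, of which 30.87% are not whole. Reads that fit several transcripts are shared out by estimation, and the strand setting is not given in the sources used here.

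The estimated counts were rounded. Genes were kept by filterByExpr (minimum count 10), library sizes scaled by TMM, and edgeR 4.0.16 quasi-likelihood tests with robust dispersion were run in R 4.3.3 on all 21168 genes, with Benjamini-Hochberg adjustment over them and a threshold of 0.05. The ratio was fitted over the 42 libraries with a term for each pool and a pulldown effect per odour, and the input over its 21 libraries with a term per odour, 13 comparisons in all. Errors of log2 fold changes come from the quasi-likelihood F statistic. CPM were computed from the same library sizes, and log2 ratios with a prior count of 2. Genes without a name, 556 in the table, held 0.5251% of the counts. Depth was 24839380 to 36781440 counts per library, and the replicate variation is given as SD or SE. Transcript lengths and gene models were those of GENCODE M21 (GRCm38), and promoters were RefSeq's (GRCm38.p6). The fits were tested on simulated data.

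Groups and replicate numbers came from the labels. Each replicate is a pool of separate animals. No 2 libraries of a group agreed within sampling noise (90 pairs compared, lowest chi-square per degree of freedom 3.34). The 10 members, the other gene lists and the cell markers were chosen with earlier results of these data known. Named genes are the members, of each other list up to 3 called genes with the smallest p per comparison, and for each member called with an odour its nearest genes over the libraries. Omp, Rps6 and the marker groups are named as checks. Alternatives were DESeq2 1.42.0, other size factors, library totals, no filter, a threshold of 0.001, only the groups compared, a replicate block, no pool term, pulldown libraries alone, the ribosomal RNA share as a covariate, a dispersion fit that is not robust, and each pool left out.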

Additional observations from a re-analysis of the deposited data

Results flagged for a closer look

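Over the 120 groups of 5 or 6 values examined (pulldown CPM, input CPM and log2 ratio of 10 members in 4 odour groups), 11 held a highest or lowest pool that stood far from the others of its group, where chance gives about 5% of groups. The No Odour pool numbered 4 accounts for 5 of them. Its input was lowest for Mtor (43.12 CPM, the others 56.4 to 61.3) and Tsc1 (12 CPM, the others 19.6 to 22.8) and highest for Rheb (53.67 CPM, the others 40.8 to 42.6). Its log2 ratio was highest for Rptor (1.223, the others 0.47 to 0.67) and Tsc1 (0.7825, the others -0.14 to 0.04). In the pulldown, Mtor was highest in NCD pool 2 (40.49 CPM, the others 29.3 to 33.4). Rptor was highest in No Odour pool 3 (33.8 CPM, the others 31.1 to 31.7) and in NCD pool 3 (35.0 CPM, the others 30.8 to 32.1). Rheb was lowest in Bacon pool 1 (51.87 CPM, the others 65.2 to 70.6) and in HFD pool 6 (63.53 CPM, the others 72.3 to 75.5). In the input, Eif4ebp1 was lowest in Bacon pool 3 (7.562 CPM, the others 9.49 to 9.85).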

How the results depend on the processing

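Of the 36 calls on the members, 25 were kept in all 21 fits that left out 1 pool and 11 were lost in at least 1. Over these fits the number of members called ran from 5 to 7 for pulldown over input, from 2 to 4, 4 to 6 and 4 to 6 for the ratio with NCD, Bacon and HFD odour, from 3 to 6, 6 to 8 and 2 to 5 for the input, from 0 to 3 for Bacon over NCD input and from 0 to 1 for HFD over Bacon input.

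The rRNA share as a covariate left 1, 0 and 3 members called in the ratio (4 at an unadjusted p under 0.05 with Bacon) and 0, 0 and 0 in the input. It turned the input changes to 0.10 (NCD), 0.060 (Bacon) and 0.13 (HFD) for Ddit4, to 0.10 (Bacon) and 0.15 (HFD) for Eif4ebp1, to -0.079 (Bacon) for Mtor and to -0.043 (HFD) for Rptor. The pulldown libraries alone gave 2, 1 and 3 calls, and the sign turned for Tsc1 (0.12, 0.13 and 0.023 with NCD, Bacon and HFD), for Ddit4 (-0.014, -0.0763 and -0.0051) and for Rptor with Bacon (0.038). At an adjusted p under 0.001 the counts were 0 for the ratio with each odour and 0 for the input with NCD and HFD. With only the groups compared in the fit they were 2 for the ratio with HFD, 0 for the input with HFD (4 at an unadjusted p under 0.05) and 5 for Bacon over NCD input. Library totals without TMM gave 6 input calls with NCD and 7 with HFD, turned Rps6ka1 to 0.21 (Bacon) and 0.19 (HFD) in the input, and moved the median of all genes in the input by 0.207, 0.325 and 0.212. Apart from what the covariate and the pulldown alone show, the cause of these changes was not tested. DESeq2 kept 16 of the 16 odour calls on the ratio and 14 of the 14 on the input.

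Whether the replicate numbers pair the pools could not be decided. Same-numbered pools of different odours had a median correlation of deviations in the ratio of 0.0205, and 3 of 27 pairs were over 0.1. A pulldown and its own input, which do share a pool, reached only 0.0142, so a low value does not exclude pairing. With the replicate block 2 members were called in the ratio with NCD and 2 in the input with HFD, and 11 of 16 ratio and 12 of 14 input odour calls were kept. Lost were the ratios of Ddit4 (adjusted p = 0.0666) and Tsc1 (0.0546) with NCD, Tsc2 with Bacon (0.0558) and Ddit4 (0.106) and Rptor (0.0833) with HFD, the HFD input of Rptor (0.0933) and Eif4ebp1 (0.0667), and Eif4ebp1 in pulldown over input (0.175).

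Pools of 4 animals, 5 or 6 per group, limit what could be called: the standard errors of the ratio changes ran from 0.079 to 0.181 on the log2 scale. Pulldown and input of a pool shared little (median correlation of deviations 0.0142), and a ratio carries the error of both. The ribosomal RNA share and the odour groups are nearly the same split of the input libraries.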
